A study of Mus musculus with 8 samples.

Results

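Costimulatory and adhesion molecules of antigen-presenting cells were compared in spleens of male mice carrying either a wild-type or a Yaa Y chromosome. The genes were fixed by name: Cd40, Cd80, Cd86, Icosl, Cd274, Pdcd1lg2, Icam1, Cd83 and Tnfsf9, which are 9 of the 18193 genes named on the array. Every probe set that the platform annotation gives to exactly 1 of these symbols was taken, 16 in all, and 0 further probe sets named a member beside another gene. The samples were 4 spleens of wild-type C57Bl/6J males and 4 samples of B6.SB-Yaa/J males, all aged 8 weeks, each hybridised to 1 Affymetrix array. The third Yaa sample pooled 2 spleens by the series' design; the source label of the second speaks of males in the plural, so whether it was also a pool is not settled. Yaa is a Y chromosome that carries a copy of a distal X segment with Tlr7; both groups are otherwise of C57BL/6 background by name, and differences elsewhere in the genome were not analysed here. The RNA is that of all spleen cells left after red cell lysis, so a lower signal for a gene of 1 cell type cannot be told apart between fewer cells and less RNA per cell.

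T cells need a signal from the antigen receptor and a further signal from surface molecules of the presenting cell. CD80 and CD86 give it through CD28 and withdraw it through CTLA4, ICOSL engages ICOS, and TNFSF9 (4-1BBL) engages TNFRSF9, while CD274 (PD-L1) and PDCD1LG2 (PD-L2) inhibit through PDCD1. CD40 is not a ligand but the receptor on B cells, dendritic cells and macrophages through which T cell CD40LG acts; CD83 is a membrane protein of activated B cells and mature dendritic cells that keeps MHC class II and CD86 at the surface. ICAM1 binds the integrin LFA-1, the pair of Itgal and Itgb2. In spleen these genes are made mostly by B cells, dendritic cells and macrophages, and NF-kB and interferon signals are known to raise several of them.

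Values are log2(signal + 16) of MAS5 signals, the array's intensity per probe set, after quantile normalization of the 8 arrays; a value of 4 is the floor. The limma test ran over the 22518 probe sets above the median mean value of 5.38, with Benjamini-Hochberg adjustment over all of them. Genes of the copied X segment checked the labels: 10 of 10 tested had higher means in Yaa, and their mean was 8.24 to 8.28 in the wild-type samples and 8.96 to 9.09 in the Yaa samples. Tlr7 itself stood at 6.85 to 7.31 in wild type and at 7.62 to 8.51 in Yaa. Spleen cell markers were present in wild type, with the means of the B cell list at 10.13 to 10.53 and of the T cell list at 8.01 to 8.52. Yaa 2 and Yaa 3 stood apart. In Yaa 3 the B cell list was at 5.59 and the T cell list at 5.50; in Yaa 2 they were at 10.86 and 9.03, the highest of the 8 samples. Of all tested genes 28.0% were highest in Yaa 2, 23.2% lowest in Yaa 3 and 35.6% highest in Yaa 3. Each result is therefore also given without these samples where that changes its direction or size.

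No member passed the test. Of the 16 probe sets 13 were above the filter, which left at least 1 for each of the 9 genes, and limma called 0 of these 13 (smallest adjusted p = 0.973), against 0.00444% of all tested probe sets, a single call. At an unadjusted p under 0.05 limma listed 1 member probe set, of Cd86 (7.69%), where 4.73% of all tested probe sets were listed. By the probe set with the highest mean signal, Cd80, Cd86, Icam1 and Tnfsf9 had higher means in Yaa and Cd40, Cd83, Icosl, Cd274 and Pdcd1lg2 had lower ones. The median log2 fold change of the 9 genes was -0.11, beside -0.019 for all tested genes. The intervals were wide, and for Cd83 the 95% interval ran from -1.61 to 0.36.

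**Figure D1:**
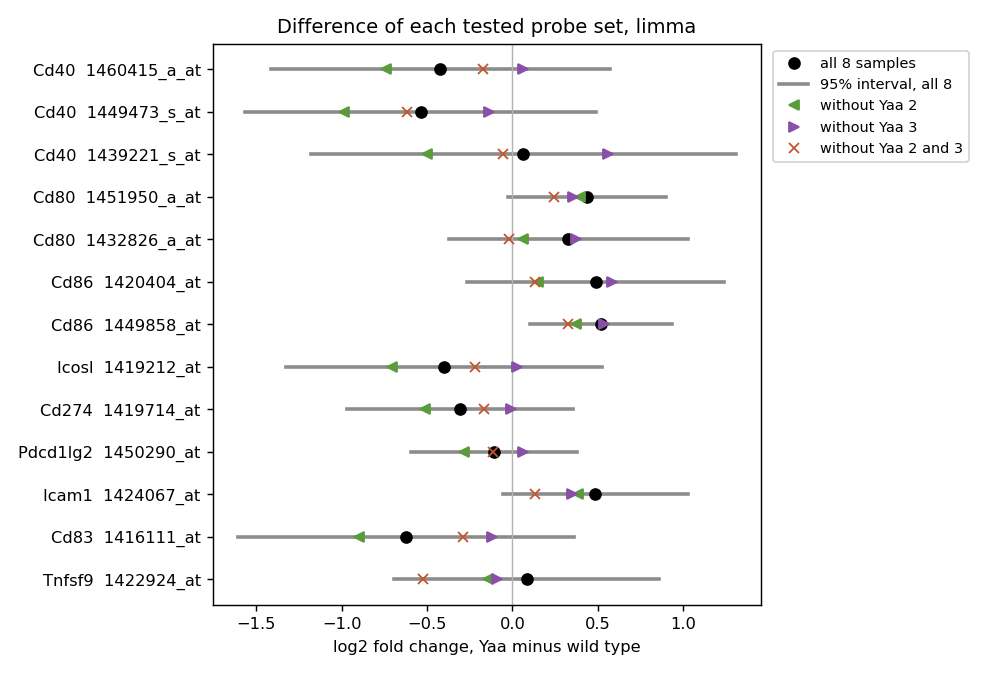
Log2 fold change, Yaa minus wild type, of the 13 tested probe sets with the 95% interval of the limma fit to 8 samples (grey), and the same difference without Yaa 2, without Yaa 3 and without both. The interval leaves out 0 for the Cd86 probe set 1449858_at alone, and the difference of the Cd40 probe set 1460415_a_at moves from -0.74 without Yaa 2 to 0.065 without Yaa 3.

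Cd86 had the smallest p of the members. Its probe set 1449858_at stood at 7.80, 8.12, 8.29 and 8.08 in wild type 1 to 4 and at 8.40, 9.05, 8.53 and 8.39 in Yaa 1 to 4. All 4 Yaa samples lay above all 4 wild-type samples, as did 2.43% of all tested probe sets. The difference was 0.52 ± 0.18 (SE), a 1.43-fold higher mean, with an unadjusted p of 0.0199 and an adjusted p of 0.973 in limma. It was 0.37 without Yaa 2 and 0.54 without Yaa 3. The unadjusted limma p rose to 0.0586 without both, where the difference was 0.32, and to 0.06 without wild type 1, the lowest sample. On the values as deposited the difference was 0.29 with an unadjusted limma p of 0.308, and with median-centred arrays it was 0.42 with 0.0518.

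The second Cd86 probe set, 1420404_at, did not separate the groups. It read 7.76, 8.25, 8.53 and 8.58 in wild type and 8.43, 9.78, 8.46 and 8.39 in Yaa. Yaa 2 alone was above the wild-type range, and the other Yaa samples lay inside it. The difference was 0.49 ± 0.33 (SE; limma adjusted p = 0.997) and fell to 0.15 without Yaa 2. Both Cd86 probe sets were lowest in wild type 1 and highest in Yaa 2.

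Cd80, the other ligand of CD28 and CTLA4, was measured by 4 probe sets, of which 2 passed the filter. Probe set 1451950_a_at stood at 6.05, 6.33, 6.84 and 6.64 in wild type and at 6.80, 7.03, 7.17 and 6.61 in Yaa. Yaa 2 and Yaa 3 were above every wild-type sample, while Yaa 1 and Yaa 4 were inside the wild-type range. The difference was 0.44 ± 0.20 (SE), with a 95% interval of -0.024 to 0.90 and a limma adjusted p of 0.997. It fell to 0.25 without Yaa 2 and Yaa 3. Probe set 1432826_a_at differed by 0.33 ± 0.31 (SE) and by 0.059 without Yaa 2, which at 6.78 was the highest of the 8. The untested probe sets 1427717_at and 1454372_at read 4.08 to 5.17 and 4.22 to 4.82 over the 8 samples, close to the floor, and had lower means in Yaa.

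**Figure D2:**
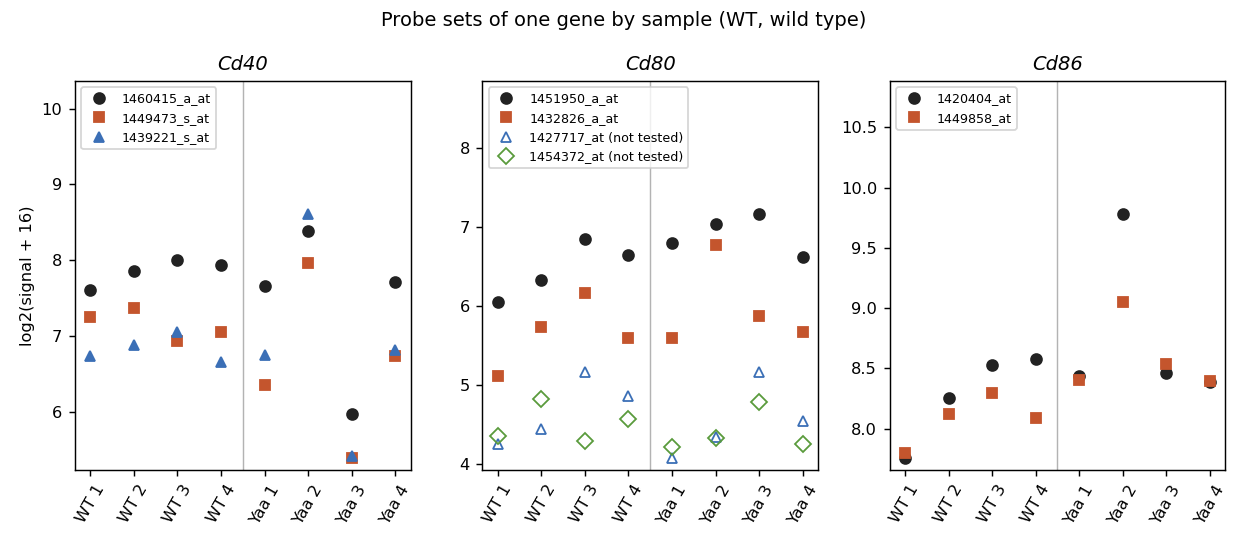
Value of each probe set of Cd40, Cd80 and Cd86 in the 8 samples, on the log2(signal + 16) scale; open symbols are probe sets below the filter. Yaa 2 is the highest sample for every tested probe set shown except Cd80 1451950_a_at, and Yaa 3 is the lowest for the 3 probe sets of Cd40 but not for Cd86.

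Cd40 was lowest in Yaa 3 by each of its 3 probe sets. The brightest, 1460415_a_at, read 7.61, 7.86, 8.01 and 7.94 in wild type and 7.66, 8.39, 5.97 and 7.71 in Yaa. Yaa 3 lay 3.68-fold below the wild-type mean, Yaa 2 lay 0.54 above it on the log2 scale, and Yaa 1 and Yaa 4 were inside the wild-type range. The group difference of -0.42 ± 0.44 (SE; limma adjusted p = 0.997) turned to 0.065 without Yaa 3 and was -0.74 without Yaa 2. It was -0.17 without both.

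The other Cd40 probe sets gave unlike differences. Probe set 1449473_s_at read 7.25, 7.37, 6.93 and 7.06 in wild type and 6.36, 7.97, 5.40 and 6.73 in Yaa, so that every Yaa sample except Yaa 2 was below every wild-type sample. Its difference was -0.54 ± 0.45 (SE; limma adjusted p = 0.997). It was -0.13 without Yaa 3 and -0.99 without Yaa 2, with a limma unadjusted p of 0.00826 and adjusted p of 0.418 in the latter. Without both it was -0.62, with an unadjusted limma p of 0.0057 and an adjusted p of 0.272. Probe set 1439221_s_at differed by 0.065 ± 0.55 (SE), with 8.61 in Yaa 2 and 5.42 in Yaa 3, and by -0.053 without both. The ending _s_at marks probes that match several transcripts, and which of the 3 follows Cd40 best was not tested.

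Cd83 was likewise lowest in Yaa 3 and highest in Yaa 2. It read 12.21, 12.55, 12.64 and 12.53 in wild type and 12.12, 12.71, 10.35 and 12.26 in Yaa. Yaa 3 was 4.38-fold below the wild-type mean and Yaa 1 was just under the lowest wild-type sample. The difference was -0.62 ± 0.44 (SE; limma adjusted p = 0.997). It was -0.12 without Yaa 3, -0.90 without Yaa 2, and -0.29 without both, with an unadjusted limma p of 0.0225 and an adjusted p of 0.444.

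Icosl, the ligand of the T cell costimulator ICOS, read 7.81, 8.45, 8.37 and 8.49 in wild type and 8.11, 8.79, 6.60 and 8.02 in Yaa by probe set 1419212_at. Yaa 3 was 3.20-fold below the wild-type mean and the other Yaa samples overlapped the wild-type range or, for Yaa 2, exceeded it. The difference of -0.40 ± 0.41 (SE; limma adjusted p = 0.997) became 0.025 without Yaa 3. It was -0.71 without Yaa 2 and -0.22 without both. The second Icosl probe set, 1426087_at, was below the filter, at 4.69 in Yaa 3 and 5.06 to 5.46 in the other 7 samples.

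The inhibitory ligands Cd274 and Pdcd1lg2, neighbouring genes with no other protein-coding gene between them in the annotation, varied the same way but less. Cd274 read 8.29, 8.70, 8.72 and 8.44 in wild type and 8.31, 8.84, 7.33 and 8.43 in Yaa. Its value in Yaa 3 was 2.30-fold below the wild-type mean. Pdcd1lg2 read 6.50, 6.73, 6.87 and 6.71 in wild type and 6.65, 7.12, 6.08 and 6.53 in Yaa, where Yaa 3 was 1.54-fold below the wild-type mean. For both genes Yaa 1 and Yaa 4 lay within the wild-type range. The group differences were -0.31 ± 0.29 and -0.11 ± 0.21 (SE; limma adjusted p = 0.997 each), and without Yaa 3 they were -0.0090 and 0.064. Without Yaa 2 they were -0.51 and -0.28, and without Yaa 2 and Yaa 3 together -0.16 and -0.11.

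Icam1 was not low in Yaa 3. It read 7.67, 8.14, 8.41 and 8.26 in wild type and 8.36, 8.91, 9.01 and 8.14 in Yaa. Yaa 3 and Yaa 2 were the highest samples, and Yaa 1 and Yaa 4 were inside the wild-type range. The mean was 1.40-fold higher in Yaa, a difference of 0.49 ± 0.24 (SE) with a 95% interval of -0.057 to 1.03 (limma unadjusted p = 0.0734, adjusted p = 0.997). It was 0.64 without Yaa 4 and 0.13 without Yaa 2 and Yaa 3.

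Tnfsf9, the ligand of TNFRSF9, changed sign in more of the refits than any other member probe set, 6 of 18. These 18 include refits that leave the difference as it is by design. Tnfsf9 read 5.59, 6.10, 6.22 and 6.39 in wild type and 5.75, 6.86, 6.66 and 5.37 in Yaa. Yaa 2 and Yaa 3 were above every wild-type sample and Yaa 4 was below every one. The difference of 0.085 ± 0.34 (SE; limma adjusted p = 0.997) turned to -0.53 without Yaa 2 and Yaa 3 and was 0.35 without Yaa 4.

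**Figure D3:**
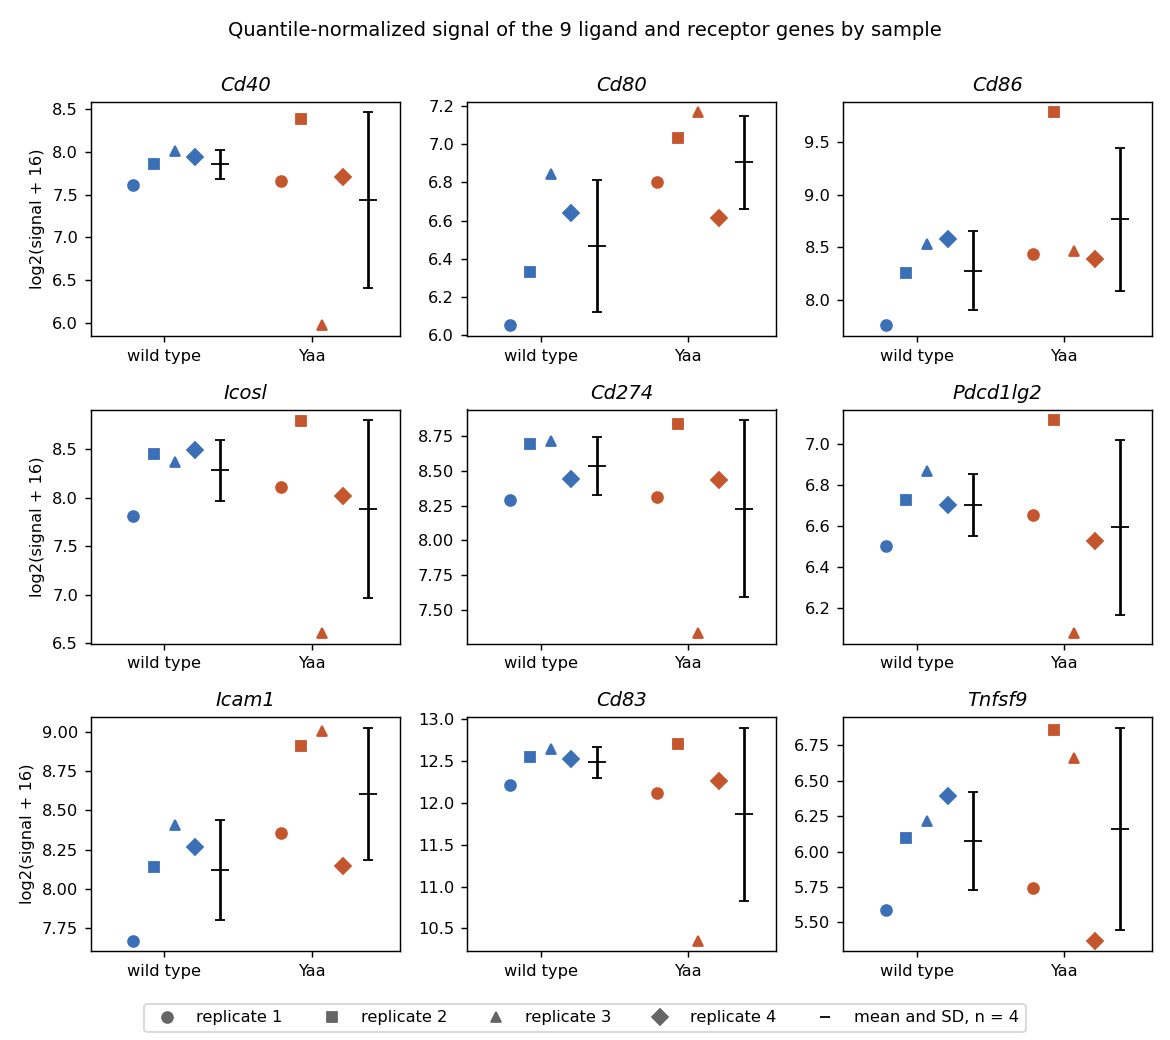
Log2(signal + 16) of the 9 genes in each sample, by the probe set with the highest mean; symbols mark the replicate number and the bar is the mean and SD of 4 samples. Yaa 3 (triangle) is the lowest sample for Cd40, Icosl, Cd274, Pdcd1lg2 and Cd83 and the highest for Cd80 and Icam1.

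The 4 Yaa samples differed among themselves. In Yaa 2 all 9 genes were above every wild-type sample, with Cd83 0.23 above the wild-type mean and Cd86 (1420404_at) 2.83-fold above it. In Yaa 3, Cd83, Cd40, Icosl, Cd274 and Pdcd1lg2 were below every wild-type sample and were the lowest of the 8. Cd86, Tnfsf9, Cd80 and Icam1 were 0.18, 0.59, 0.70 and 0.89 above the wild-type mean there. In Yaa 1 and Yaa 4 the first 5 genes and Tnfsf9 were below the wild-type mean and Cd86, Cd80 and Icam1 above it. These sets of genes were formed from the values and are given with no test. Of the 9 genes 7 were highest of the 8 samples in Yaa 2, where 28.0% of all tested genes were. In Yaa 3, 5 were lowest, where 23.2% of all tested genes were. The shares of all genes above every wild-type sample in Yaa 2, or below every one in Yaa 3, were not computed.

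Cell type markers moved with these values. In Yaa 3 the B cell list, with 13 tested genes, differed from its wild-type mean by -4.80, and the 8 MHC class II genes differed by -2.41. In the same sample the 14 monocyte and macrophage genes lay 1.43 above wild type and the 14 neutrophil genes stood at 10.04. The mean of the 11 dendritic cell genes differed by -0.21 there. Of these genes Ccr7 read 7.64 in Yaa 3, beside a wild-type mean of 12.11. The others went both ways in Yaa 3. Zbtb46, Itgax, Cd209a, Clec10a, Batf3 and Siglech were above their wild-type means, and Irf8, Fscn1, Flt3 and Ccr9 were below theirs. The wild-type samples held the B cell list at 10.13 to 10.53 and the Yaa samples at 5.59 to 10.86; for the monocyte and macrophage list the ranges were 8.51 to 8.60 and 8.64 to 9.99. The neutrophil list ran from 7.82 to 8.46 in wild type and from 8.35 to 10.40 in Yaa. In Yaa 2 the B cell list was 0.47, the monocyte and macrophage list 0.49 and the dendritic cell list 0.57 above wild type. The 8 erythroid genes moved most of all marker lists there, by -1.61, and stood at 10.62 against 12.11 to 12.38 in wild type and 12.18 to 12.39 in the other Yaa samples. The part of these markers in the members' values was not tested.

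**Figure D4:**
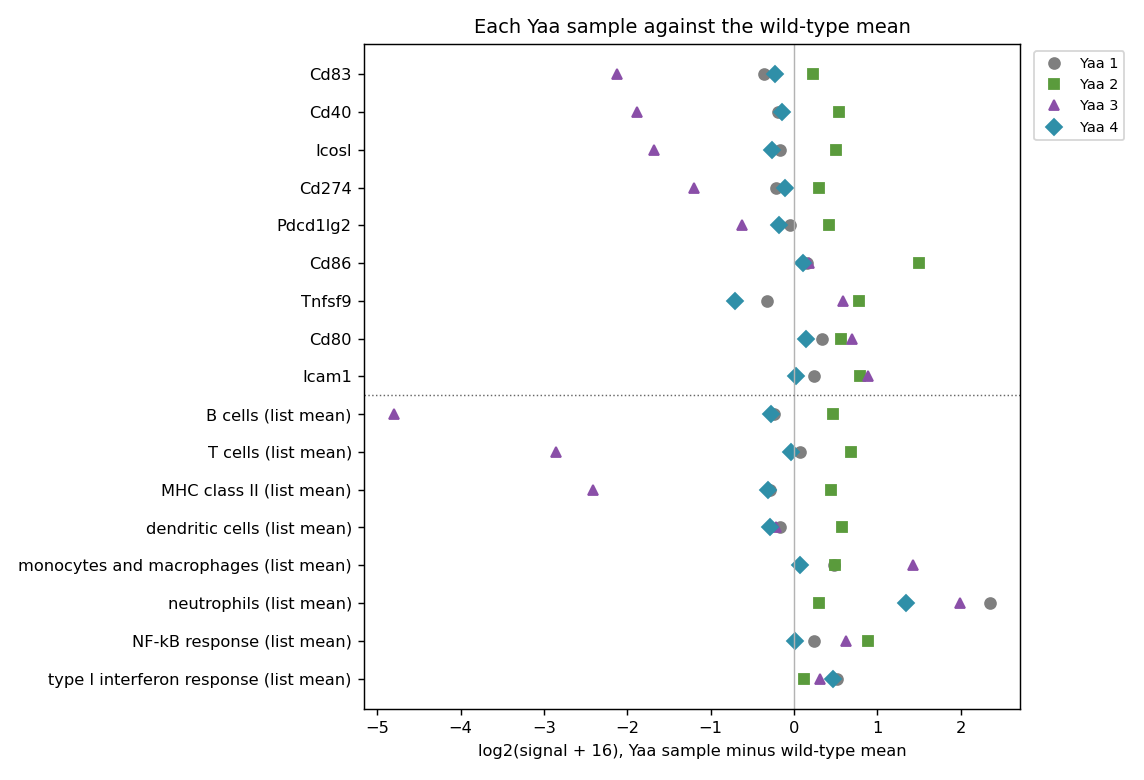
Each Yaa sample minus the wild-type mean, for the 9 genes (above the dotted line, ordered by Yaa 3) and for the means of marker and response lists (below it), on the log2(signal + 16) scale. In Yaa 3 the genes run from -2.13 for Cd83 to 0.89 for Icam1, and the B cell list lies at -4.80.

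Promoter sequence was at hand in the RefSeq table (GRCm38.p6) for 5 of the 9 genes, and is shown because Icosl, Cd274 and Pdcd1lg2 were low in Yaa 3 while Icam1 and Cd80 were not. Each line gives the 250 bases before the listed start on the + strand, with motif matches in capitals. For Cd80 and Cd274 the listed start lies inside the annotated gene.
Icosl, chr10:78069118-78069367: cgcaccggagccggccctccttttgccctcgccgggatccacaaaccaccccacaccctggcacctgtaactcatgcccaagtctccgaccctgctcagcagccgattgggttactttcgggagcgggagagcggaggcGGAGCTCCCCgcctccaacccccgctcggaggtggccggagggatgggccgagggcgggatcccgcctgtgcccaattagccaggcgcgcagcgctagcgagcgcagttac
Cd274, chr19:29367188-29367437: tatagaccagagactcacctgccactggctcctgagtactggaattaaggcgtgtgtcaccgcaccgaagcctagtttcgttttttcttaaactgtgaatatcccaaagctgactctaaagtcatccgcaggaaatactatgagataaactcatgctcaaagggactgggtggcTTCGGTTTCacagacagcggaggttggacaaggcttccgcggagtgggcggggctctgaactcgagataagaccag
Pdcd1lg2, chr19:29410669-29410918: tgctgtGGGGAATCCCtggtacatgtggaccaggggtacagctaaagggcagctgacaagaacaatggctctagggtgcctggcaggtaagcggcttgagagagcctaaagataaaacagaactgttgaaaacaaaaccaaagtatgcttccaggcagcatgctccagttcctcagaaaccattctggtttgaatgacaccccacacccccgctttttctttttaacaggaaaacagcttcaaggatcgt
Icam1, chr9:21015690-21015939: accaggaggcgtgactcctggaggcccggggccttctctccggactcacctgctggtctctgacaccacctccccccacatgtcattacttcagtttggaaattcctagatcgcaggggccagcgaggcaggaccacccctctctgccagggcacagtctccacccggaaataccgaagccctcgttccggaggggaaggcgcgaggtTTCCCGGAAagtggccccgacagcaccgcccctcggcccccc
Cd80, chr16:38458683-38458932: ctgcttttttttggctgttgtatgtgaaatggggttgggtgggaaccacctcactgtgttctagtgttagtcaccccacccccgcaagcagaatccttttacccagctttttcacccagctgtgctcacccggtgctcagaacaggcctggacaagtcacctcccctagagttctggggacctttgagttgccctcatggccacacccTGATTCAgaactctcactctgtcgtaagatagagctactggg

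The motifs searched on both strands were the NF-kB consensus, the interferon regulatory factor element GAAANNGAA, the STAT element TTCNNNGAA and the AP-1 site TGANTCA. The NF-kB consensus was a strict form of 10 letters that opens with GGG and closes with CC. Looser forms were not searched, so a promoter without a match, such as that of Icam1, may still hold one. The NF-kB consensus occurred in Icosl, 111 to 102 bases before the start, and in Pdcd1lg2, 244 to 235 bases before it. It is held by 7.25% of the 32851 listed promoters. Cd274 held the interferon regulatory factor element 76 to 68 bases before its start (7.13% of promoters). Icam1 held the STAT element 42 to 34 bases before its start (7.02%) and Cd80 the AP-1 site 42 to 36 bases before it (6.75%). No match overlapped another. The capitals mark letters and not sites of binding, and genes on either side of the Yaa 3 pattern held matches.

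The partners of these molecules on T cells were measured by 7 tested genes of 10 listed. limma called 0 of them, and their median log2 fold change was -0.054. It listed 1 gene at an unadjusted p under 0.05, where 4.73% of all tested probe sets were listed in either direction. That gene was Itgam, the integrin chain of phagocytes that also binds ICAM1, whose mean was 6.40 ± 0.14 for wild type and 7.32 ± 0.53 for Yaa (SD, n = 4 each), a difference of 0.91 ± 0.25 (SE; limma adjusted p = 0.728). Itgb2, its beta chain shared with LFA-1, differed by 0.19 ± 0.15 (SE), and Itgal by 0.11 ± 0.26 (SE). Cd28 differed by -0.40 ± 0.56 (SE). Without Yaa 3, 7 of 7 had higher means in Yaa, with a median of 0.25; without Yaa 2, 2 of 7 did, with a median of -0.11. Beside the wide error of Cd28, the T cell list differed from wild type by -2.85 in Yaa 3; its part was not tested.

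Other surface ligands and adhesion molecules, not all of the same families, showed no common direction. Of 14 tested genes 8 had higher means, and limma called 0. Their median log2 fold change was 0.0086 (4 of 14 higher and -0.13 on the values as deposited). The median was 0.086 without Yaa 2 and -0.016 without Yaa 3. At an unadjusted limma p under 0.05, 2 were higher and 1 lower, where 4.73% of all tested probe sets were listed in either direction. These were Cd44, a receptor for hyaluronan, at 0.53 ± 0.20 (SE), Tnfsf14 (LIGHT) at 0.88 ± 0.36 (SE) and Icam2, an LFA-1 ligand of resting endothelium, at -0.52 ± 0.22 (SE). Their adjusted p in limma was 0.997 each. The signalling genes below CD40 had 6 of 14 higher, a median of -0.022 and 0 calls. The direction turned with the samples: 2 of 14 were higher without Yaa 2 (median -0.19) and 11 of 14 without Yaa 3 (median 0.16). Among these genes Traf5, an adaptor of the receptor, had -0.45 ± 0.19 (SE) and the kinase gene Ikbkb -0.41 ± 0.31 (SE), while Nfkb2, of the alternative NF-kB pathway, had 0.32 ± 0.24 (SE; limma adjusted p = 0.997 each).

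Response genes known to rise with the same stimuli as the members were compared as lists. For the NF-kB response, 18 of 19 tested genes had higher means in Yaa, with a median log2 fold change of 0.43. limma called 0; 6 of the 19 were higher at an unadjusted p under 0.05, where 3.23% of all tested genes were, and 5 did not overlap between the groups, where 4.47% did. Cxcl2, a neutrophil chemokine, had 1.44 ± 0.43 (SE), Nfkbiz, a nuclear NF-kB cofactor, 0.58 ± 0.21 (SE) and the chemokine Ccl3 0.51 ± 0.19 (SE), with limma adjusted p of 0.841, 0.983 and 0.997. Without Yaa 2 and Yaa 3 the median of the list was 0.13, with 14 of 19 higher and 1 higher at an unadjusted p under 0.05. On the values as deposited, where the median of all probe sets was -0.20, the list had 15 of 19 higher, a median of 0.22 and 1 at that p. The list's mean was 9.62 in Yaa 2 and 9.36 in Yaa 3, against 8.46 to 8.88 in wild type. These were also the highest samples for Icam1, Tnfsf9 and, in its brightest probe set 1451950_a_at, Cd80. In the other tested Cd80 probe set, 1432826_a_at, Yaa 3 read 5.87 and wild type 3 read 6.17. Yaa 3 was the lowest sample for 5 of the 9 members.

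For the type I interferon response 13 of 16 had higher means, with a median of 0.39 and 0 limma calls. At an unadjusted limma p under 0.05, 5 were higher, where 3.23% of all tested genes were. As deposited, 11 of 16 were higher, with a median of 0.21 and 2 at that p. Rtp4 had 0.99 ± 0.19 (SE) and Oas1a, an RNA-sensing synthetase, 0.58 ± 0.15 (SE; limma adjusted p = 0.412 and 0.656). The list stood highest in Yaa 1, at 8.25, and lowest of the Yaa samples in Yaa 2, at 7.86, where the 9 members were above every wild-type sample. Without Yaa 2 and Yaa 3 the median was 0.43 and limma called 2, where it called 0.466% of all tested probe sets.

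The interferon-gamma response showed no common direction: 7 of 12 genes had higher means, with a median of 0.083 and 0 limma calls. limma listed 2 higher at an unadjusted p under 0.05, where 3.23% of all tested genes were. As deposited, 3 of 12 were higher and the median was -0.15. The median was -0.090 without Yaa 2, 0.23 without Yaa 3 and 0.15 without both. limma called 2 of the 12 without Yaa 2, where it called 0.138% of all tested probe sets. It also called 2 without Yaa 2 and Yaa 3 together, where it called 0.466% of all. The GTPase genes Igtp and Irgm2 had 1.18 ± 0.29 and 1.66 ± 0.48 (SE; limma adjusted p = 0.636 and 0.816), and the chemokine Cxcl9 had -0.48 ± 0.29 (SE; limma adjusted p = 0.997). Of 20 immediate early and heat shock genes, which also respond to tissue handling, 11 had higher means, with a median of 0.0059. This list had 0 limma calls and 5 higher at an unadjusted p under 0.05, where 3.23% of all tested genes were. Without Yaa 2, 8 of 20 were higher, with a median of -0.093 and 1 limma call. Leaving out Yaa 3 gave 15 of 20, a median of 0.13 and 0 calls. Leaving out both gave 11 of 20, a median of 0.053 and 3 calls. Hspa1b and Hspa1a, chaperones of the heat shock response, had 1.84 ± 0.34 and 2.15 ± 0.44 (SE; limma adjusted p = 0.337 and 0.449). The other heat shock genes of the list, Hsp90aa1, Hsph1 and Dnajb1, were also higher in mean, by 0.35, 0.92 and 0.33. The immediate early genes went both ways.

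Of the 8 MHC class II genes, which present the antigen beside these ligands, 0 had higher means; the median was -0.57, with 0 limma calls and 0 at an unadjusted p under 0.05. Without Yaa 3 the median was -0.033, with 3 of 8 higher. Without Yaa 2 it was -0.91, with 4 lower at an unadjusted limma p under 0.05. Of all tested probe sets 9.17% were at that p there, in either direction. Without both samples the median was -0.27, with 0 of 8 higher and 3 lower at that p, beside 8.82% of all.

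The genes most like each member over the 8 samples were sought among 10339 genes, as the smallest root mean square difference of log2 values centred on each gene's own mean. Cd83 was followed most closely by Slc9a7, an ion exchanger, and H2-Aa, an MHC class II chain, at 0.062 and 0.067, beside an SD of Cd83 of 0.77. Cd40 was followed by Dpp4 and Smim14 at 0.075 and 0.082, and Icosl by Sptbn1 and Plk2 at 0.078 and 0.080. Cd274 had Micall1 and Cdip1, and Pdcd1lg2 had Rapgef6 and Ly6e, at 0.051 to 0.060. The neighbours of Icam1 were Eepd1 at 0.083 and Rgs1 at 0.11. Those of Cd86 were Adam9 at 0.12 and Zc3h12a, an RNase induced by NF-kB, at 0.13. Cd80 had Serpinb8 and Hip1 at 0.10 and 0.11, and Tnfsf9 had Cass4 and Vav3 at 0.15 and 0.17. All these patterns share the same 8 arrays, of which Yaa 2 and Yaa 3 spread most, so they are descriptions with no test.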

How the data were processed

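Spleen cell RNA of 8 samples was measured on 1 array each. The deposited values are MAS5 signal intensities, linear and 1 per probe set, per the submitters' processing notes. No version or scaling target of MAS5 is given in the sources used here. Trimmed means of the deposited arrays ran from 106.9 to 193.1, so arrays were quantile normalized and taken as log2(signal + 16), which understates changes of dim probe sets. The table held 45101 probe sets; 64 controls and those at or below the median were left out. Yaa and wild type were compared with limma 3.58.1 in R 4.3.3 (lmFit, eBayes with trend), adjusted by Benjamini-Hochberg over 22518 probe sets at 0.05. The procedure was also run on simulated data. The outcome is not given here, nor whether any simulated array stood apart from its group. That run therefore cannot show how reliable the calls are in these samples. Names came from the platform annotation, updated through Entrez IDs (GRCm38.p6, 34754 matched): 34945 probe sets had 1 symbol, 932 several and 9160 none. The brightest tested probe set stood for a gene.

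The members, lists and tests were chosen with earlier results of these data known. Named are all members, up to 3 genes of smallest p per list discussed, and the 2 nearest genes of each member; genes named besides were chosen after their values were seen. RNA was extracted per animal by the design text, except for the pool, Yaa 3; the label of Yaa 2 leaves its number of mice unclear. The number of arrays limits the precision. Alternatives were other pseudocounts, filters, scalings and variance models, array weights, a replicate block and left-out samples. Plots used Python 3.11.15 and matplotlib 3.10.9.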

Additional observations from a re-analysis of the deposited data

Results flagged for a closer look

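Dixon's ratio is the gap of a sample to the nearest other divided by the range of its set. Among 32 sets of 4 samples (16 probe sets in 2 groups), 2 held a sample whose ratio exceeded Dixon's 95% critical value. Chance gives about 5% of such sets. The Cd86 probe set 1420404_at read 9.78 in Yaa 2, whereas Yaa 1, Yaa 3 and Yaa 4 read 8.39 to 8.46. The Icosl probe set 1426087_at, below the filter, read 4.69 in Yaa 3, whereas Yaa 1, Yaa 2 and Yaa 4 read 5.34 to 5.46. The cause was not tested.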

How the results depend on the processing

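limma called 0 member probe sets in each of the 19 alternatives, with 0 to 3 at an unadjusted p under 0.05. The count of 3 of 13 (23.1%) came with array weights, where 11.3% of all tested probe sets were at that p. It also came without Yaa 4, where 5.13% of all were. Over all probe sets limma called 1, 0 with log2(signal + 1) (1032 at an unadjusted p under 0.05), 0 with the stricter filter (485 at an unadjusted p under 0.05), 143 with array weights, 105 without Yaa 2 and Yaa 3 together, and 1 to 31 with single samples left out: 31 without Yaa 2, 11 without Yaa 4 and 2 without Yaa 1. With the replicate number as a block it called 0 (731 at an unadjusted p under 0.05). Same-numbered samples correlated at -0.0053, 0.016, -0.37 and -0.13 in their deviations from group means, which shows no pairing by number. Yaa 2 and Yaa 3 stood far from their group mean, so these correlations cannot settle whether a pairing exists. Array weights were 0.22 for both Yaa 2 and Yaa 3. On the deposited scale the median log2 fold change over all probe sets was -0.20.

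Member differences kept their direction in 225 of 241 refits. Refits that changed only the filter, the variance model or the replicate block leave the difference as it is, so they could not turn it. The exceptions, with cause not tested, were as follows. Cd40 (1439221_s_at) was -0.0058 with log2(signal + 1), -0.072 with the values as deposited, -0.035 with array weights and -0.053 without Yaa 2 and Yaa 3 together, and -0.50 to 0.56 with single samples left out. Cd40 (1460415_a_at) was 0.065, Icosl 0.025 and Pdcd1lg2 0.064 without Yaa 3; with single samples left out they ran from -0.74, -0.71 and -0.28. Cd80 (1432826_a_at) was -0.0087 with array weights and -0.018 without Yaa 2 and Yaa 3 together. Tnfsf9 was -0.076 as deposited, -0.40 with array weights, -0.53 without Yaa 2 and Yaa 3 together, and -0.15 to 0.35 with single samples left out. Signal near the floor limits the dim probe sets of Cd80 and Icosl.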

Other observations

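Each member was also set against marker lists of the same sample, a description chosen after seeing the data. Cd40 minus the B cell list mean, relative to wild type, lay between -0.052 and 0.13 in the 7 samples other than Yaa 3, with an SD of 0.056, where Cd40 itself had an SD of 0.27 over the same samples. In Yaa 3 it was 2.92, so that Cd40 was lower there by less than the B cell list was; the list was near the filter in that sample. Against the MHC class II list, Cd83 lay between -0.22 and 0.091 in the 7 samples and at 0.28 in Yaa 3, and Cd40 at 0.53 and Icosl at 0.73 in Yaa 3. Cd274 and Pdcd1lg2 were at 1.21 and 1.79 in that sample on the same measure, and Cd86, Cd80 and Icam1 at 2.59, 3.11 and 3.30. In Yaa 1, Yaa 2 and Yaa 4, Cd86 minus the MHC class II list was 0.44, 1.06 and 0.42 above wild type and Icam1 0.52, 0.35 and 0.34 above, while the wild-type samples spread from -0.19 to 0.18 and from -0.12 to 0.12. The MHC class II list was itself at 10.79, 11.53, 8.67 and 10.76 in Yaa 1 to 4, beside a wild-type mean of 11.08. Where it is lower, subtracting it raises any gene that did not fall with it. For both genes the 4 Yaa samples lay above the 4 wild-type samples against this list. The share of all genes that did so was not computed. This separation was not tested. It also held against the B cell list and the dendritic cell list, and did not hold against the monocyte and macrophage list. Against the dendritic cell list Cd86 was at 0.32, 0.93, 0.40 and 0.40 in Yaa 1 to 4 (wild type -0.21 to 0.15). Icam1 was at 0.41, 0.22, 1.10 and 0.31 there (wild type -0.14 to 0.19). Relative to the monocyte and macrophage list Cd86 was at -0.32, 1.02, -1.24 and 0.034 in Yaa 1 to 4 (wild type -0.46 to 0.28). Icam1 was at -0.24, 0.31, -0.54 and -0.052 on that measure (wild type -0.39 to 0.28).

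Against the monocyte and macrophage list, Cd80 was at -0.73 relative to wild type in Yaa 3, and Cd83, Cd40 and Icosl were at -3.56, -3.31 and -3.11.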
